A study of Homo sapiens with 4 samples.

Results

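The genes described here are 10 targets of the hypoxia-inducible factors (HIFs) that lie outside glycolysis: NDRG1, VEGFA, ADM, ANKRD37, BNIP3, BNIP3L, EGLN3, KDM3A, P4HA1 and MXI1. They were taken from the count table by gene name, 10 of its 57014 rows with a gene name. All 10 were among the 18043 genes that passed the filter on low counts, and each had at least 36 counts in every library. They were chosen by their known role together with the measured difference between knockout and control libraries, which was in view, so that difference is described here and not tested.

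All 4 libraries were made from poly(A)-selected RNA of 22Rv1, an established human prostate cancer cell line grown in medium with fetal bovine serum. The control group has 2 libraries, replicates 1 and 3, wild type by genotype and named for sgGFP. The knockout group has 2 libraries, also numbered 1 and 3, knocked out for CD276 and named for sgCD276; the protein it encodes, B7-H3, sits on the cell surface and belongs to the B7 family. The labels name no oxygen level and no hypoxic treatment, and they do not say whether the knockout cells were a single clone or a pool. No label states that the replicates were separate cultures, and p-values thus measure only the spread between these libraries, which may be technical.

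HIFs are heterodimers of an oxygen-regulated alpha subunit and the stable partner ARNT. When oxygen is present, prolyl hydroxylases of the EGLN family mark the alpha subunit, and the VHL ubiquitin ligase complex has it degraded. When oxygen is low the alpha subunit builds up, binds DNA at short hypoxia response elements and raises genes of blood vessel growth, metabolism, mitochondrial turnover and feedback on the pathway itself.

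The core of a hypoxia response element is ACGTG or GCGTG. It was searched on both strands, the other strand reading CACGT and CACGC, in the 250 bases before each gene start in the RefSeq promoter table (GRCh38.p14), where 7 of the 10 genes were matched. Of the 35116 windows of all genes, 43.2% held at least 1 match, and so did 8 of the 10 windows of these 7 genes. The 2 windows of KDM3A overlap and hold the same match. By gene, 6 of the 7 had at least 1 match (ADM, ANKRD37, BNIP3, KDM3A, P4HA1 and, in 2 of its 3 windows, MXI1). That number has no share of all genes beside it, because the 43.2% counts windows. The windows of 4 genes are shown because their levels went different ways in knockout cells: P4HA1 and EGLN3 were above both controls in both knockout libraries, BNIP3 and ANKRD37 in 1 of them. Sequences run 5′ to 3′ on the gene's strand, end at the base before the start, and have the matches in capitals.
P4HA1, chr10:73096867-73097116, minus strand: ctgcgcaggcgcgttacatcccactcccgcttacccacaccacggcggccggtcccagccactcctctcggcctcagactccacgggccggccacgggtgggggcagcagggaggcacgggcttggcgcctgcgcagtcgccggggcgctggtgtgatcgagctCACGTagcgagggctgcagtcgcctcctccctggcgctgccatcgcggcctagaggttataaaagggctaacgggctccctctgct
EGLN3, chr14:33951075-33951324, minus strand: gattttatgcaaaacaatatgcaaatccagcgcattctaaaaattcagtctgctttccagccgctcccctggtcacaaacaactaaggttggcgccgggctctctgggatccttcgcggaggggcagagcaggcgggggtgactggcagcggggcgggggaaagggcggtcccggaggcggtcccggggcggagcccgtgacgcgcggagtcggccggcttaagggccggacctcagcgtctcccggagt
BNIP3, chr10:131981924-131982173, minus strand: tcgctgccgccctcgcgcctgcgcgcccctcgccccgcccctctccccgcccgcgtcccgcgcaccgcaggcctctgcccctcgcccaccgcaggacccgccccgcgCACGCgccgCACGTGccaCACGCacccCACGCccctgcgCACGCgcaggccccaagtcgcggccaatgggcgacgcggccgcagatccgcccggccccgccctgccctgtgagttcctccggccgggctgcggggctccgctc
ANKRD37, chr4:185396591-185396840, plus strand: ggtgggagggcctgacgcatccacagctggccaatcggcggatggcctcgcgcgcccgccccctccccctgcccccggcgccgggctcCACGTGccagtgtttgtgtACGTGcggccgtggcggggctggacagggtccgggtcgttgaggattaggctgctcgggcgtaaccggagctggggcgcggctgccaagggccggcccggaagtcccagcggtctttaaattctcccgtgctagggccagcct
The BNIP3 window held 6 matches in 5 separate stretches, and at least 4 stretches occurred in 1.85% of all windows. ANKRD37 had 3 matches in 2 stretches, the first of them the palindrome CACGTG, in which a match on each strand overlaps; at least 2 stretches occurred in 16.2% of all windows. P4HA1 had 1 match and EGLN3 had 0. The matches are letters in a window and not binding sites. The outermost GENCODE starts of these 4 genes lie upstream of the RefSeq starts used here.

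Named rows held 20079050 to 25802417 counts per library. CD276 itself was at 47.4 and 54.4 normalized CPM (counts relative to a library size that is scaled by the trimmed mean of M-values) in control replicates 1 and 3 and at 23.6 and 26.2 in knockout replicates 1 and 3. It fell by 1.03 ± 0.16 (SE) on the log2 scale (edgeR quasi-likelihood test, Benjamini-Hochberg adjusted p = 0.00561), but missed the threshold of 0.05 without control replicate 3 (edgeR adjusted p = 0.0812; 2.28e-16 to 0.0812 over 12 alternatives). Of all genes tested 22.8% passed, 9.87% higher and 12.9% lower in knockout cells. Scaled by library totals alone, 56.8% of the calls were higher in place of 43.3%, and the median over all genes shifted by 0.11 (log2). The knockout libraries were less like each other (r = 0.979 for log2 CPM across genes, which are no replicates) than the controls (r = 0.990). Mitochondrial genes took 5.84% and 6.15% of the control counts and 1.46% and 1.78% of the knockout counts; their part in the results below was not tested. The 10 markers of prostate cancer epithelium were all detected, with summed levels of 3180 to 3990 normalized CPM, and summed levels were at most 0.232 for 3 basal, 1.30 for 5 immune and 1.48 for 4 endothelial markers, CD3E, MS4A1, PECAM1 and CDH5 being at 0 in all libraries. The 5 fibroblast markers summed to 59.8 and 54.0 in control cells and 33.9 and 46.1 in knockout cells, mostly from COL1A1. In bulk RNA, fewer cells expressing a gene and less RNA per cell cannot be told apart.

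As a group, the 10 HIF targets lay higher in knockout replicate 3 than in any other library, and knockout replicate 1 lay between it and the controls for 6 of them. NDRG1, P4HA1, MXI1, BNIP3L, KDM3A and EGLN3 were above both controls in both knockout libraries. VEGFA, ADM, BNIP3 and ANKRD37 were above both controls in knockout replicate 3, but in replicate 1 VEGFA and ADM were below both controls and BNIP3 and ANKRD37 between them. Knockout replicates 1 and 3 had median log2 differences from the mean of the controls of 0.58 and 1.08, against -0.05 and 0.01 over all genes tested.

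**Figure D1:**
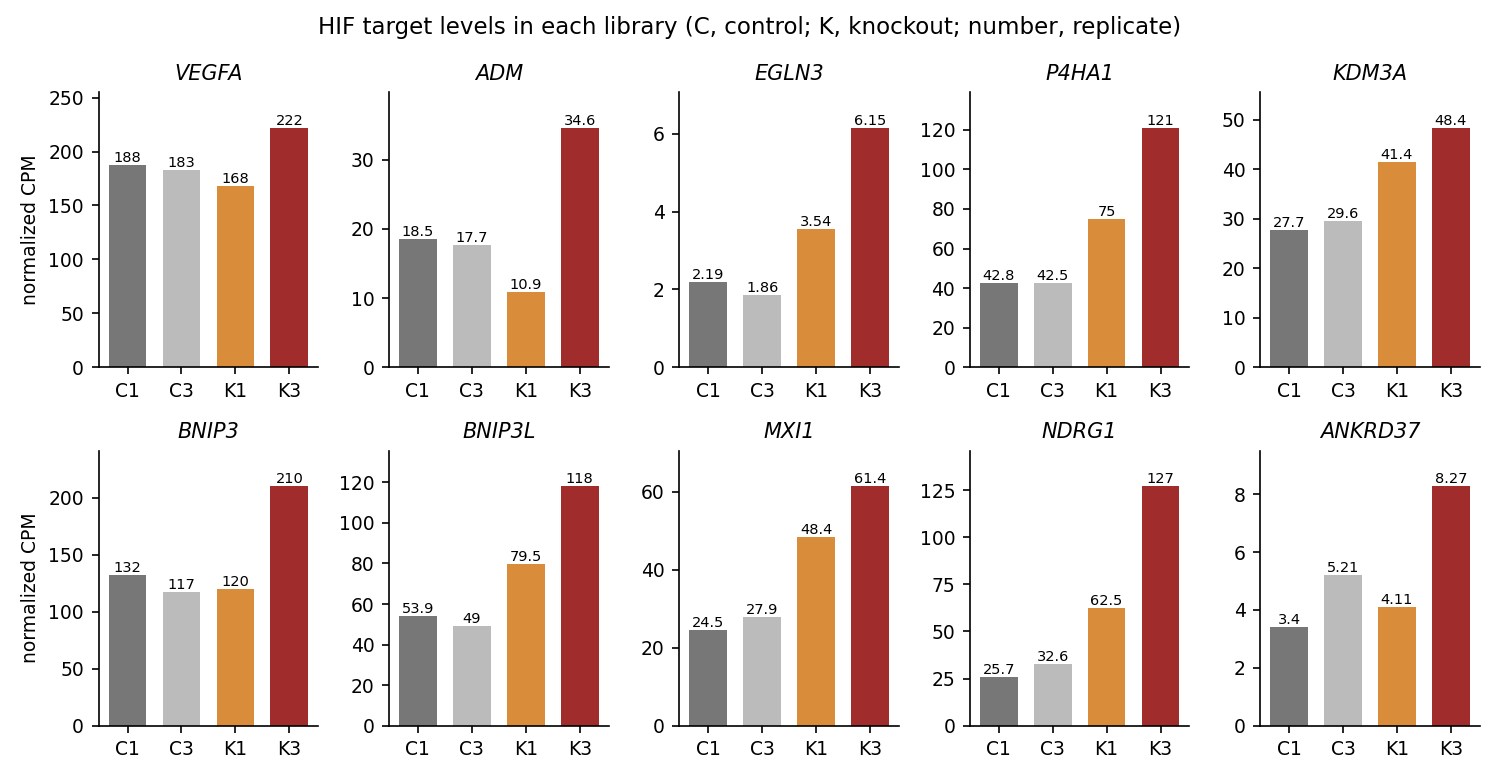
Level of each HIF target in normalized CPM (y axis, from 0, a separate scale per gene) in control replicates 1 and 3 (C1, C3) and knockout replicates 1 and 3 (K1, K3); each bar is 1 library. The K3 bar is the tallest for all 10 genes, while K1 is below both controls for VEGFA (168) and ADM (10.9).

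Among the 10 are a pair of secreted ligands that act on vessels and other cells. VEGFA, the main growth factor of blood vessels, was at 188 and 183 normalized CPM in control cells, 168 in knockout replicate 1 and 222 in knockout replicate 3. Its groups overlapped, and the log2 fold change of the 2 knockouts together was 0.07 ± 0.17. ADM, which encodes the vasodilator peptide adrenomedullin, was at 18.5 and 17.7 in control cells, 10.9 in knockout replicate 1 and 34.6 in knockout replicate 3. Its knockout libraries thus stood on opposite sides of close controls, at 0.601 and 1.92 times their mean. No other gene of the 10 had so large a gap between the knockouts, and its log2 fold change was 0.33 ± 0.43.

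Among the enzymes, EGLN3, P4HA1 and KDM3A are dioxygenases that use oxygen and 2-oxoglutarate. EGLN3, a HIF prolyl hydroxylase that is itself induced by HIF and so feeds back on it, was at 2.19 and 1.86 normalized CPM in control cells, 3.54 in knockout replicate 1 and 6.15 in knockout replicate 3. These levels rest on 49, 36, 93 and 159 counts, the fewest of any of the 10 genes in control cells. The groups did not overlap, and the log2 fold change was 1.25 ± 0.35. P4HA1, the catalytic subunit of a collagen prolyl 4-hydroxylase, was at 42.8 and 42.5 in control cells, 75.0 in knockout replicate 1 and 121 in knockout replicate 3. Its controls were nearly equal, and both knockouts stood well above them, at 1.76 and 2.83 times their mean (log2 fold change 1.20 ± 0.21). KDM3A, a histone demethylase of lysine 9 of histone H3, was at 27.7 and 29.6 in control cells, 41.4 in knockout replicate 1 and 48.4 in knockout replicate 3. Its knockouts were the closest to each other of the 10 genes, and the log2 fold change was 0.65 ± 0.16.

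BNIP3 and BNIP3L are related receptors in the outer mitochondrial membrane that recruit the autophagy machinery to mitochondria. BNIP3L was at 53.9 and 49.0 normalized CPM in control cells, 79.5 in knockout replicate 1 and 118 in knockout replicate 3 (log2 fold change 0.94 ± 0.19). BNIP3 was at 132 and 117 in control cells, 120 in knockout replicate 1 and 210 in knockout replicate 3 (0.40 ± 0.24). Both knockouts were above the controls for BNIP3L, whereas for BNIP3 knockout replicate 1 was between the controls. BNIP3 has many pseudogenes. The one with the most reads, BNIP3P30, had 90 and 49 counts in control cells and 26 and 29 in knockout cells, against 2274 to 5423 for BNIP3. BNIP3L overlaps PNMA2 and a pseudogene of the opposite strand in 8.96% of its exonic bases; PNMA2 was at 2.69 and 2.53 normalized CPM in control cells and 6.40 and 7.62 in knockout cells.

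The remaining genes are the transcriptional repressor MXI1, the stress gene NDRG1 and ANKRD37. MXI1, a partner of MAX that opposes MYC, was at 24.5 and 27.9 normalized CPM in control cells, 48.4 in knockout replicate 1 and 61.4 in knockout replicate 3 (log2 fold change 1.07 ± 0.17). NDRG1, which hypoxia and androgens both induce, was at 25.7 and 32.6 in control cells, 62.5 in knockout replicate 1 and 127 in knockout replicate 3. It had the largest difference of the 10 genes in both knockout libraries, 2.14 and 4.35 times the mean of the controls, and a log2 fold change of 1.70 ± 0.30. ANKRD37, an ankyrin repeat protein, was at 3.40 and 5.21 in control cells, 4.11 in knockout replicate 1 and 8.27 in knockout replicate 3 (0.53 ± 0.37). Its controls differed 1.53-fold (95% exact counting interval 1.13 to 2.09), the widest gap between controls of the 10 genes, on 76 and 101 counts. ANKRD37 also shares 35.2% of its exonic bases with UFSP2 on the opposite strand, and where strand was not used in counting the reads of the pair cannot be told apart. UFSP2 was at 13.9 and 15.6 in control cells and 20.9 and 22.8 in knockout cells.

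**Figure D2:**
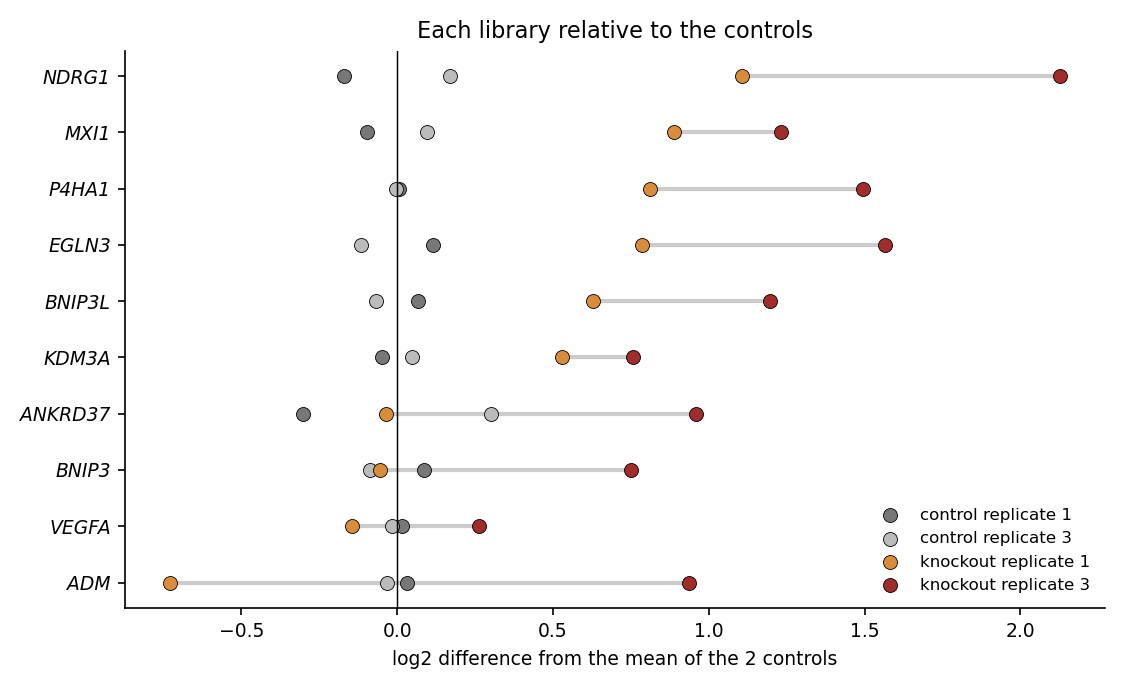
Log2 difference of each library from the mean of the 2 controls (x axis), 1 row per gene, ordered by knockout replicate 1; grey points are controls, orange and red points knockout replicates 1 and 3, and the grey line joins the knockouts. Knockout replicate 3 runs from 0.26 for VEGFA to 2.13 for NDRG1, and knockout replicate 1 from -0.73 for ADM to 1.11 for NDRG1.

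In the plot of differences from the controls the red points are all to the right of zero, and 4 orange points are to the left of it. Of the 10 genes, 9 were at least 1.5-fold above the controls in knockout replicate 3, where 16.1% of all genes were. In knockout replicate 1 this held for 5 of the 10, against 16.6% of all genes, and ADM was at least 1.5-fold below. In the edgeR fit over all genes 6 of the 10 were among the genes called higher and 0 among those called lower, and both knockouts were above both controls in the same 6, beside 9.87% and 31.8% of all genes. This is a description and no test, since the genes were chosen with this contrast known, and nothing is read from these shares. The median log2 fold change of the 10 was 0.79, against -0.00 over all genes, and it was 0.79 above the median of all genes with library totals alone. The number called higher was 1 and 3 when control replicate 1 or 3 was left out, and 10 and 6 when knockout replicate 1 or 3 was. Without knockout replicate 3, ADM was also called lower, and the log2 fold changes of ADM and VEGFA changed sign, to -0.67 and -0.08.

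All 10 genes were higher in knockout replicate 3 than in knockout replicate 1. The ratio was 3.19 for ADM (95% exact counting interval 2.79 to 3.66), 2.03 for NDRG1 (1.92 to 2.16), 2.01 for ANKRD37 (1.59 to 2.56), 1.75 for BNIP3 (1.67 to 1.83) and 1.74 for EGLN3 (1.34 to 2.27). It was 1.61 for P4HA1, 1.48 for BNIP3L, 1.33 for VEGFA, 1.27 for MXI1 and 1.17 for KDM3A (1.08 to 1.27). These intervals cover counting error only, and with 1 library on each side there is no test. A ratio of at least 1.5 was reached by 6 of the 10 genes and by 12.4% of all genes; knockout replicate 3 was the higher one for 50.1% of all genes. The median log2 ratio was 0.73 for the 10 genes and 0.00 for all genes. Between the controls, replicate 3 was the higher one for 4 of the 10 and at least 1.5-fold higher for 1 (ANKRD37), beside 5.1% of all genes, and the median size of the log2 ratio was 0.16 there against 0.73 between the knockouts, compared with 0.14 and 0.31 over all genes.

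**Figure D3:**
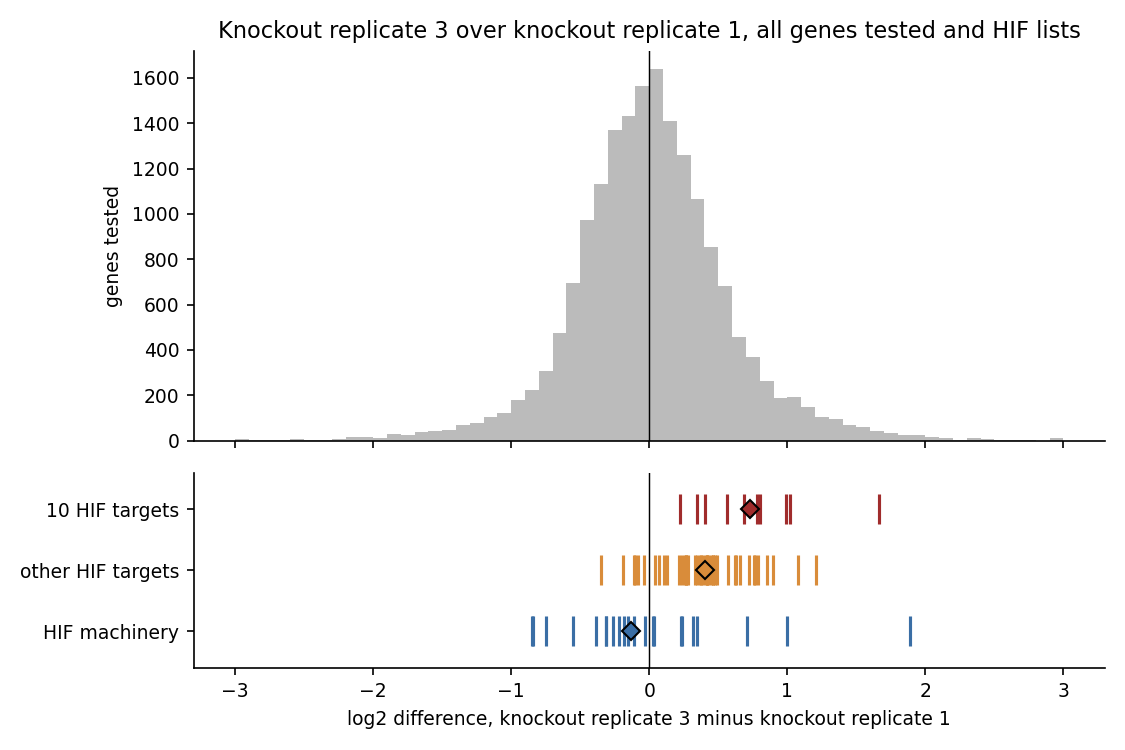
Upper panel, number of the genes tested (y axis) by log2 difference between knockout replicate 3 and knockout replicate 1 (x axis, genes beyond 3 in either direction pooled in the end bins); lower panel, the same difference for each gene of 3 HIF lists (bars) with the list's median (diamond). All 10 HIF targets are right of zero, between 0.23 and 1.67, and 9 of the 22 genes of the HIF machinery are.

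Per kilobase of annotated exon the genes spanned a wide range of levels in the control cells. The mean of the controls was 23.5 normalized CPM per kilobase for BNIP3, 13.8 for P4HA1, 12.9 for VEGFA, 11.9 for BNIP3L, 6.64 for ADM, 5.69 for MXI1, 2.97 for NDRG1, 2.13 for KDM3A, 1.67 for ANKRD37 and 0.275 for EGLN3. No neighbours in this order overlapped between the 2 controls. NDRG1 moved from the seventh place in control cells to the sixth in both knockouts, and P4HA1 passed BNIP3 in knockout replicate 1, at 24.2 against 22.5 normalized CPM per kilobase. In knockout replicate 3 they were close, at 39.0 and 39.4. Lengths are the union of annotated exons, so a gene whose cells use a short transcript has its level understated.

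The 10 genes lie on 7 chromosomes (GRCh38, GENCODE 29), and no gene shares exonic bases with another gene of the 10. BNIP3 (131966455 to 131982013, minus strand), P4HA1 (73007217 to 73096974, minus strand) and MXI1 (110207605 to 110287365, plus strand) are on chromosome 10. NDRG1 (133237171 to 133302022, minus strand) and BNIP3L (26382898 to 26505636, plus strand) are on chromosome 8. VEGFA is on chromosome 6 (43770184 to 43786487, plus strand), ADM on chromosome 11 (10304680 to 10307397, plus strand) and ANKRD37 on chromosome 4 (185396021 to 185400628, plus strand). EGLN3 is on chromosome 14 (33924231 to 34462774, minus strand) and KDM3A on chromosome 2 (86440647 to 86492716, plus strand). All are protein-coding.

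Most of the other HIF targets outside glycolysis did not pass the test, as was so for 13932 of the 18043 genes tested. Of 46 listed, 42 were tested; 6 rose, 2 fell and 34 were not called (edgeR adjusted p under 0.05), beside 9.87% and 12.9% of all genes. Those that rose were TGFA, a ligand of the EGF receptor (log2 fold change 1.76 ± 0.37, edgeR adjusted p = 0.0136), BHLHE40, a repressor of transcription (1.53 ± 0.35, 0.0172), AK4, a mitochondrial adenylate kinase (1.08 ± 0.14, 0.00372), TFRC, the transferrin receptor (1.03 ± 0.16, 0.00591), GBE1, the glycogen branching enzyme (0.67 ± 0.15, 0.0168), and PLOD2, a collagen lysyl hydroxylase (0.60 ± 0.14, 0.021). AK4 was at 40.5 and 45.6 normalized CPM in control cells and 89.6 and 92.2 in knockout cells, and TFRC at 105 and 112 against 248 and 195, so for these genes the knockouts were close or replicate 1 was the higher. The 2 that fell were WSB1, a subunit of a ubiquitin ligase, from 196 and 191 to 98.6 and 114 (-0.86 ± 0.14, edgeR adjusted p = 0.00674), and IGFBP3, which binds insulin-like growth factors, from 141 and 138 to 79.6 and 95.9 (-0.67 ± 0.15, edgeR adjusted p = 0.0152). These counts depended on which library was left out. Without either control nearly all of the calls were lost, and without either knockout library more genes rose. The log2 fold changes of the genes called kept their sign over 12 alternatives. The widest range was that of TGFA, 1.52 to 2.03, and AK4 ran from 0.99 to 1.19.

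Like the 10 genes, these 42 were mostly higher in knockout replicate 3 than in knockout replicate 1. This held for 36 of the 42, with a median log2 ratio of 0.40, and 11 reached 1.5-fold. It also held for 18 of the 20 glycolytic HIF targets tested, with a median of 0.45, and 7 of those reached 1.5-fold. Among all genes it held for 50.1%, and 12.4% reached 1.5-fold. The lean was not confined to HIF targets. It was seen in 7 of the 10 prostate cancer epithelium markers (median 0.31) and 10 of 13 mitophagy partners of BNIP3 and BNIP3L (0.41). Of all relatives and partners of the 10 genes, 35 of the 55 tested had it (0.23). In the HIF machinery it was 9 of 22 genes, and in the MAX network of MXI1 3 of 10. MIR210HG, the host gene of the hypoxia-induced microRNA miR-210, was at 25.1 and 22.3 normalized CPM in control cells, 15.5 in knockout replicate 1 and 32.8 in knockout replicate 3. FAM162A, a mitochondrial protein, was at 220 and 209 in control cells, 128 in knockout replicate 1 and 231 in knockout replicate 3. Like ADM, both had knockout libraries on opposite sides of both controls; they were chosen after their values were seen and neither passed the test. Over the 42 genes the median difference from the controls was 0.18 and 0.51 (log2) in knockout replicates 1 and 3, where 6 and 19 genes were at least 1.5-fold above the controls (16.6% and 16.1% of all genes were) and 7 and 1 at least 1.5-fold below. Of 46 listed genes CA9, PPP1R3C, FLT1 and NT5E were too low to test, CA9 with 0 counts in both knockouts. Among 20 glycolytic HIF targets tested 5 rose (PGAM1, PGK1, HK2, PDK1 and PFKFB3), 0 fell and 15 were not called, beside 9.87% higher and 12.9% lower of all genes. At an edgeR p under 0.05 before adjustment, 7 were higher and 0 lower, and DESeq2 called 6 and 0; the edgeR number that rose was 0 without control replicate 1, 1 without control replicate 3 and 15 without knockout replicate 1, and 2 fell without knockout replicate 3.

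Transcripts of the HIF pathway itself included genes that rose, the alpha subunits HIF1A and EPAS1 among them, while the third alpha subunit, HIF3A, was under 1 normalized CPM in every library and was not called. All 22 listed genes were tested; 4 rose (9.87% of all genes did), 1 fell (12.9% of all genes did) and 17 were not called. HIF1A, the broadly expressed alpha subunit, was at 37.3 and 44.3 normalized CPM in control cells, 95.0 in knockout replicate 1 and 76.4 in knockout replicate 3 (log2 fold change 1.07 ± 0.16, edgeR adjusted p = 0.00581). EPAS1, the alpha subunit of HIF-2, was far lower, at 3.36 and 3.46 in control cells and 8.83 and 9.05 in knockout cells (1.39 ± 0.23, edgeR adjusted p = 0.00676). Both knockouts were above both controls for each of them, and for HIF1A the order of the knockouts was opposite to that of the 10 targets, with a ratio of replicate 3 to replicate 1 of 0.804 (95% exact counting interval 0.758 to 0.854). CITED2, a HIF target that competes with HIF for the coactivators EP300 and CREBBP, was at 79.4 and 96.1 in control cells and 225 and 229 in knockout cells (1.37 ± 0.15, edgeR adjusted p = 0.00287). ARNT2, a relative of ARNT, was at 6.09 and 7.18 in control cells and 15.4 and 12.8 in knockout cells (1.09 ± 0.21, edgeR adjusted p = 0.0108). RBX1, the RING subunit of the VHL ligase, fell from 106 and 97.9 to 61.2 and 71.8 (-0.61 ± 0.14, edgeR adjusted p = 0.0189).

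**Figure D4:**
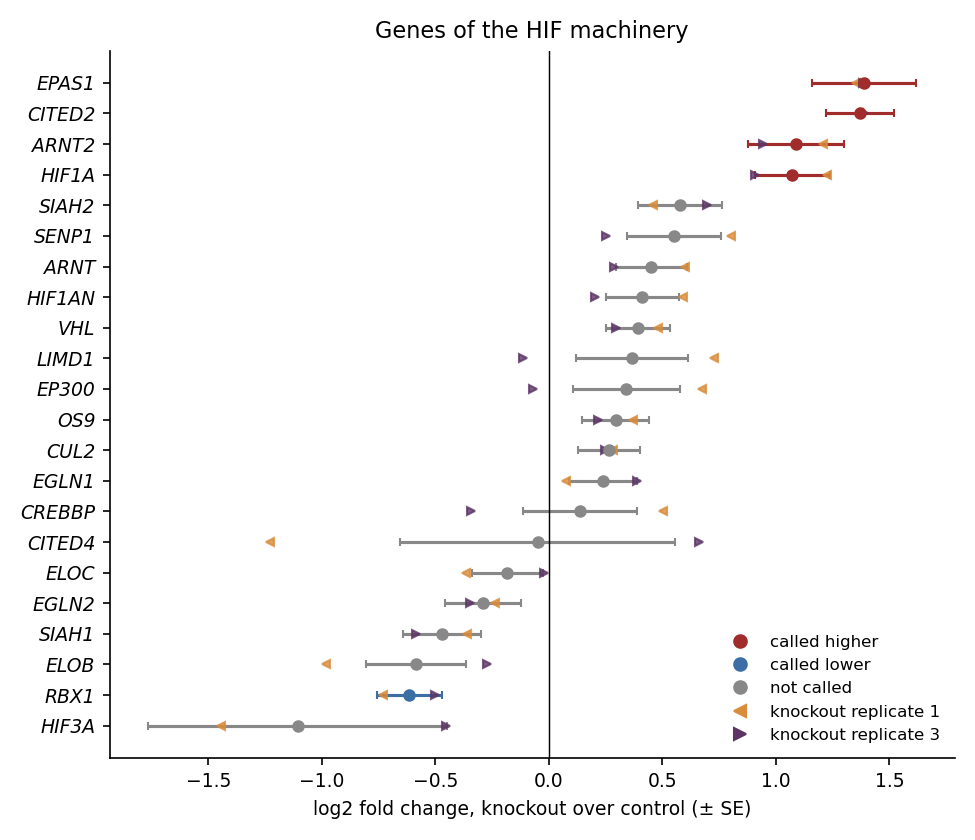
Log2 fold change of knockout over control (x axis) for the 22 genes of the HIF machinery, with circles for the edgeR estimate, bars for ± 1 SE and triangles for each knockout library relative to the mean of the controls; red genes were called higher and blue lower. EPAS1, CITED2, ARNT2 and HIF1A are the 4 called higher, and RBX1 is the 1 called lower.

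CITED2 kept its call under all 12 alternatives, with an adjusted p of 1.49e-46 to 0.0384. HIF1A missed the threshold without control replicate 1 (adjusted p 3.19e-34 to 0.101 over the alternatives), and EPAS1 (3.43e-09 to 0.113), ARNT2 (9.71e-12 to 0.197) and RBX1 (1.88e-09 to 0.303) missed it without either control. The number that rose was 1 and 2 without control replicates 1 and 3, 9 and 14 without knockout replicates 1 and 3, and 8 with no filter on low counts; the number that fell was 0, 0, 4 and 4, and 2 with no filter or by DESeq2. VHL, EGLN1, EGLN2 and HIF1AN, which act against the alpha subunits, were not called: VHL was at 51.7 and 56.5 normalized CPM in control cells and 75.6 and 66.4 in knockout cells (edgeR adjusted p = 0.0772), EGLN1 at 92.5 and 94.2 against 98.3 and 122 (0.272), EGLN2 at 19.3 and 19.4 against 16.5 and 15.2 (0.232), and HIF1AN, the asparaginyl hydroxylase of HIF, at 58.6 and 60.1 against 89.5 and 68.3 (0.0959). ARNT, the partner of the alpha subunits, was not called either, at 44.2 and 47.1 against 69.2 and 55.7 (edgeR adjusted p = 0.0662). SIAH2, a ligase for the EGLN enzymes (0.58 ± 0.18), SENP1, a SUMO protease (0.55 ± 0.21), OS9 (0.29 ± 0.15) and CUL2, the cullin of the VHL ligase (0.26 ± 0.14), had positive log2 fold changes that did not pass. ELOB (-0.59 ± 0.22) and ELOC (-0.18 ± 0.16), the adaptors of that ligase, SIAH1 (-0.47 ± 0.17) and HIF3A (-1.11 ± 0.66) had negative ones that did not pass. Some of these depended on the setting. SIAH2 (edgeR adjusted p = 0.0535) passed with RLE scaling, library totals alone, no filter, DESeq2 or a block for the replicate number. ELOB passed with no filter, DESeq2 or the block, and SENP1 with no filter or the block. ARNT passed with library totals alone or no filter, and HIF1AN with no filter. EP300 (0.34 ± 0.24), CREBBP (0.14 ± 0.25) and LIMD1 (0.37 ± 0.25) were above both controls in knockout replicate 1. In knockout replicate 3 EP300 was between the controls. CREBBP (41.0 against 47.6 and 56.9 in control cells) and LIMD1 (34.9 against 36.6 and 39.1) were below both there. CITED4 (-0.05 ± 0.61) was below both controls in replicate 1 and above them in replicate 3, and its sign flipped with library totals alone.

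The relatives and partners of the 10 genes were mostly not called, as were 13932 of the 18043 genes tested. Of 60 listed, 55 were tested, of which 8 rose and 3 fell while 44 stayed uncalled (9.87% and 12.9% of all genes rose and fell), and 4 of the 60 are also among the other HIF targets and 2 in the HIF machinery. None of the 8 rises remained a call without control replicate 1 or without control replicate 3 (0 in each), and 24 and 14 genes were called higher without knockout replicates 1 and 3. The 3 that fell became 0, 0, 8 and 10 in the same order, and 1 with library totals alone.

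Among mitophagy genes, 4 of 13 rose and 0 fell, beside the same 9.87% and 12.9% of all genes; DESeq2 called 5 and 0. GABARAPL2, a GABARAP family protein of autophagosomes, was at 38.0 and 38.7 normalized CPM in control cells and 72.5 and 75.0 in knockout cells (log2 fold change 0.94 ± 0.13, edgeR adjusted p = 0.00472). The mitophagy receptor BCL2L13 was at 33.9 and 34.0 against 66.0 and 55.8 (0.84 ± 0.15, edgeR adjusted p = 0.0083), and PINK1, the kinase that marks damaged mitochondria, at 13.3 and 16.1 against 28.1 and 25.9 (0.88 ± 0.18, edgeR adjusted p = 0.0115). The phosphatase PGAM5 was at 148 and 169 against 240 and 210 (0.51 ± 0.15, edgeR adjusted p = 0.04) and missed the threshold under upper quartile scaling. The ratio of knockout replicate 3 to replicate 1 was 1.03 for GABARAPL2, 0.845 for BCL2L13, 0.924 for PINK1 and 0.875 for PGAM5. It was 1.48 for BNIP3L and 1.75 for BNIP3. The 4 were selected by the call, which favours genes whose knockouts are close. Of the 13, 2 were at least 1.5-fold higher in knockout replicate 3 than in replicate 1 (12.4% of all genes were), and 0 at least 1.5-fold lower. PINK1 shares 39.4% of its exonic bases with an antisense gene, so its counts are uncertain. Before adjustment, 6 of the 13 were higher and 1 lower at an edgeR p under 0.05.

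In the MAX network of MXI1, MLX, the partner of the glucose-sensing factor MLXIP (0.71 ± 0.14, edgeR adjusted p = 0.0105), and SIN3A, the corepressor that MXI1 recruits (0.53 ± 0.16, edgeR adjusted p = 0.0401), rose. MXD3, a relative of MXI1, fell (-0.50 ± 0.14, edgeR adjusted p = 0.0364), and the other 7 of 10 were not called. MYC, picked with its values known, measured 272 and 288 normalized CPM in control cells and 324 and 280 in knockout cells. Annotated exons of other genes cover 18.1% of MLX on the opposite strand, and for MXD3 18.0% on the same and 22.5% on the opposite strand, and MXD3 missed the threshold with library totals alone. Of the NDRG family NDRG3 rose, from 30.6 and 32.2 to 45.9 and 45.6 (0.54 ± 0.14, edgeR adjusted p = 0.0293), and NDRG2 and NDRG4 were not called. NDRG4 was below both controls in knockout replicate 1 (20.9 against 24.0 and 26.3) and above both in knockout replicate 3 (32.6).

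Of 9 collagen hydroxylases and their partners PLOD2 rose and the other 8 were not called. P4HA2, the paralog of P4HA1, was at 8.78 and 7.85 normalized CPM in control cells, 11 in knockout replicate 1 and 20.5 in knockout replicate 3 (0.92 ± 0.29, edgeR adjusted p = 0.0522; 4.06e-14 to 0.252 over 12 alternatives). P4HB, which pairs with both and was also picked with its values known, measured 844 and 819 in control cells and 821 and 833 in knockout cells, so its 4 libraries were close while P4HA1 differed. EGLN1 and EGLN2, the relatives of EGLN3, and KDM3B, JMJD1C and HR, the relatives of KDM3A, had 0 calls in edgeR, also 0 at an edgeR p under 0.05 before adjustment and 0 by DESeq2.

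Of 7 tested VEGF ligands and receptors 0 rose and 0 fell. Before adjustment, 1 was higher and 1 lower at an edgeR p under 0.05, and DESeq2 called 0. PGF, a placental relative of VEGFA, was at 0.806 and 1.19 normalized CPM in control cells, 1.26 in knockout replicate 1 and 3.71 in knockout replicate 3, and NRP1, a coreceptor, at 25.5 and 24.5 against 18.8 and 17.3 (edgeR adjusted p = 0.113 and 0.066). FLT1 and KDR, the main VEGF receptors, were not tested, with 0 counts of FLT1 in all 4 libraries. Of 8 tested relatives and receptors of ADM 2 fell. ADM5 went from 6 and 6.04 to 1.87 and 3.44 (-1.18 ± 0.33, edgeR adjusted p = 0.0348), but 21.3% of its exonic bases belong to PRMT1 as well, on the same strand, and 24.9% to an opposite-strand gene. GPR182 (edgeR adjusted p = 0.0478; 0.0393 to 0.171 over 9 alternatives) rests on 10 counts in each control and 3 and 1 in the 2 knockout libraries, and DESeq2 did not call it.

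Among all genes, those whose pattern over the 4 libraries was nearest to that of NDRG1 were KLF10, TMEFF2, PGAM1, CKS2 and CDKN1A. Nearness was the Euclidean distance of log2 normalized CPM centred on the controls, over 4 libraries, among 9225 genes with at least 10 normalized CPM in every library, and it was 0.60, 0.62, 0.64, 0.69 and 0.70. KLF10, a transcription factor induced by TGF-beta, was at 20.4 and 25.4 normalized CPM in control cells and 58.0 and 68.5 in knockout cells. CDKN1A, the cell cycle inhibitor p21, was at 93.1 and 98.8 in control cells, 148 in knockout replicate 1 and 300.0 in knockout replicate 3. No gene was as high in knockout replicate 3 relative to the controls as NDRG1 among these 5, whose log2 differences there were 1.49 to 1.65 against 2.13. The genes nearest to the median of the 10 were FKBP9, CDK5R1, TP53TG1, BTG1 and CORO2A, at distances of 0.05 to 0.11. BTG1, an antiproliferative gene, was at 178 and 170 in control cells, 258 in knockout replicate 1 and 343 in knockout replicate 3. With 4 libraries, many genes can share such a pattern.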

How the data were processed

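Whole-number counts per gene were deposited by the authors as 1 table for the 4 libraries; per the submitters' processing notes, reads were trimmed with Trimmomatic 0.36, aligned with STAR 2.5.2b to GRCh38 and counted with featureCounts of Subread 1.5.2. The sources used here do not give the strand setting, the handling of multi-mapping reads or the annotation. The table had 57500 rows; 486 without a gene name (0.0191% to 0.0290% of counts) were left out.

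Genes were filtered with filterByExpr, scaled with TMM (factors 0.962, 0.965, 1.07 and 1), and compared in edgeR 4.0.16 under R 4.3.3 (robust quasi-likelihood fit, group only, 2 residual degrees of freedom, biological coefficient of variation 0.158). P-values were Benjamini-Hochberg adjusted over all 18043 genes, with a threshold of 0.05. On simulated data 5.18%, 57.4% and 93.4% of genes changed 1.5-, 2- and 4-fold were recovered among 17588, 17600 and 17569 genes. Changes of 2-fold and less can thus be missed, and there were 1, 10 and 9 false calls. The simulation changed few genes per run and gave both groups the same spread. In these data 22.8% of genes passed and the knockouts differed more than the controls, so the recovered shares need not hold here.

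The 10 genes and the lists of related genes were chosen with earlier results of these data known, and the lists are not independent evidence of a direction. The text names these 10 genes, CD276, the HIF machinery, the genes of each list called or with the 3 smallest p, and the 5 genes nearest to NDRG1 and to the median of the 10; genes too low to test and genes that share sequence with a named gene are also named, and any other is marked as picked after seeing its values. Exon lengths, overlaps and positions (1-based) came from GENCODE 29. Alternatives were DESeq2 1.42.0, RLE and upper quartile scaling, library totals alone, a filter of 50 counts in each library of a group or none, a fit that was not robust, a block for the replicate number, each library left out in turn and, for the ratio between knockouts, a prior count of 0.5 in place of 2.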

Additional observations from a re-analysis of the deposited data

How the results depend on the processing

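Leaving out a control library cost most calls and leaving out a knockout library added many; then 1 residual degree of freedom is left and the spread of the lone library is taken from the other group. The cause was not tested. With 1 library left out, 45 to 4795 of all genes were higher and 267 to 4471 lower. The ranges were 1 to 10 and 0 to 1 for the 10 HIF targets, 0 to 24 and 0 to 7 for the other targets, 1 to 14 and 0 to 4 for the machinery, 0 to 24 and 0 to 10 for the partners, and 0 to 15 and 0 to 2 for the glycolytic targets. CD276 ran from -1.13 to -0.92 and was no longer called without control replicate 3. With no knockout replicate 1, EP300 (-0.067 to 0.74 over the libraries left out), CREBBP (-0.34 to 0.57), LIMD1 (-0.10 to 0.80) and KDM3B (-0.13 to 0.37) turned negative and CITED4 (-1.29 to 0.65) positive, CITED4 also without control replicate 3. With no knockout replicate 3, VEGFA (-0.076 to 0.27), ADM (-0.67 to 0.95), NDRG4 (-0.20 to 0.39) and HR (-0.70 to 0.75) turned negative and JMJD1C (-0.33 to 0.076) positive. Library totals alone gave 12 other targets higher, 1 partner lower and CITED4 at 0.034, and shifted the median of all genes by 0.11. With no filter, 11 other targets and 8 machinery genes were higher and 2 machinery genes lower; DESeq2 also had 2 machinery genes lower.

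The shared replicate numbers were not used to pair the libraries. No label ties them to a batch, and the deviations of same-numbered libraries had a correlation of -0.0152. Neither settles whether the libraries were processed in pairs, which is unknown. With the replicate number as a block, 2062 genes were higher and 2781 lower, and 10 other targets were higher, 2 machinery genes lower and 5 partners lower. All 10 HIF targets were higher in knockout replicate 3 than in replicate 1 under upper quartile scaling, RLE scaling, library totals alone and a prior count of 0.5; the median log2 difference was 0.76, 0.69, 0.63 and 0.74. Of 784 values for single genes under an alternative (CD276 left out), 665 were kept, 56 lost and 51 gained a call, and 12 changed sign. A kept value had the same direction and side of the threshold. For the 10 HIF targets no threshold was used, and kept meant the same direction and a log2 shift below the SD of the 2 knockouts. Calls gained or lost by the 10 are thus not among these numbers. Genes under about 100 counts, EGLN3 and ANKRD37 among the 10, have the widest counting intervals.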
